A study of Mus musculus with 2 samples.

Results

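Camp, Ngp, Ltf, Lcn2, Chil3 and Fcnb encode proteins that neutrophil precursors store in their later granules. They were chosen by gene symbol, and each symbol matched 1 of the 32285 gene rows of both deposited matrices, so that 6 genes are described. The series profiled single leukemic cells of PLZF/RARA leukemia, a form of acute promyelocytic leukemia in which the zinc finger protein PLZF is fused to the retinoic acid receptor alpha. Late promyelocytes with the surface phenotype Cd45.2+, C-Kit+, Gr1+, Cd34- and FcγR+ were sorted from leukemic mouse bone marrow. Both groups come from PLZF/RARA leukemia and passed the same gate. Whether every cell carries the fusion was not measured here. The vehicle group received corn oil with 10% DMSO into the peritoneum and the retinoic acid group received 0.8 to 1 mg of the drug by the same route, both for 7 days. A cohort held 3 to 5 mice, and neither the number of mice behind each library nor their age or strain is given in the sources used here. Each group was 1 library, so no difference between the groups has a replicate check and no p-value is given.

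Neutrophil granules are filled in waves as the cell matures. Primary granules form in the promyelocyte and hold myeloperoxidase and serine proteases. Secondary granules form in the myelocyte and metamyelocyte, and gelatinase-rich tertiary granules form later still. The transcription factor C/EBPε is known as a main activator of secondary granule genes, and retinoic acid is the differentiating agent used against acute promyelocytic leukemia. Camp encodes the precursor of the antimicrobial peptide cathelicidin. Ngp encodes neutrophilic granule protein, a cystatin-like protein. Ltf encodes lactoferrin, an iron-binding protein, and Lcn2 encodes lipocalin 2, which binds bacterial siderophores. Chil3 encodes the chitinase-like lectin Ym1, and Fcnb encodes ficolin B, a lectin that binds microbial sugars.

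By the GENCODE M21 annotation of GRCm38, 3 of the genes are on chromosome 9: Camp at chr9:109847379-109849617 on the minus strand, Ngp at chr9:110419747-110423012 on the plus strand and Ltf at chr9:111019271-111042767 on the plus strand. Lcn2 (chr2:32384633-32388252) and Fcnb (chr2:28076378-28084885) lie on the minus strand of chromosome 2, and Chil3 (chr3:106147554-106167564) on the minus strand of chromosome 3. The sequences before the RefSeq start sites are shown for 5 of the genes, because the 6 rose together and C/EBP factors are known to bind near such genes. They come from the RefSeq promoter table for GRCm38.p6, which held all 6 genes. Each is written 5′ to 3′ on the gene's strand and runs from 250 bases before the RefSeq start to the last base before a stretch that GENCODE annotates as untranslated. The Camp stretch is chr9:109849618-109849706, the Ngp stretch chr9:110419558-110419746, the Ltf stretch chr9:111019042-111019270, the Lcn2 stretch chr2:32387798-32387989 and the Fcnb stretch chr2:28084886-28085128. Capitals mark matches, on either strand, to 3 motifs picked after the sequences had been seen: TTNNGCAA for C/EBP, GGAAGT for ETS factors such as PU.1, and AGGTCA for a nuclear receptor half-site.
Camp: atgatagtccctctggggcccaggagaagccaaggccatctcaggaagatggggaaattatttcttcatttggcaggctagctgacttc
Ngp: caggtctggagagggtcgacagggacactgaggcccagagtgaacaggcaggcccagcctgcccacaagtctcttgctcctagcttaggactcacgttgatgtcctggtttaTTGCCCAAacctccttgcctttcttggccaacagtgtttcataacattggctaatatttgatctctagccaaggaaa
Ltf: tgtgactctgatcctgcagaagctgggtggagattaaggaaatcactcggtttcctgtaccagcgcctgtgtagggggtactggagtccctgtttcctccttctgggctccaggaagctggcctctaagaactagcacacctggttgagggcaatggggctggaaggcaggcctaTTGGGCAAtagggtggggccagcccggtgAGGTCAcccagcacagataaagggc
Lcn2: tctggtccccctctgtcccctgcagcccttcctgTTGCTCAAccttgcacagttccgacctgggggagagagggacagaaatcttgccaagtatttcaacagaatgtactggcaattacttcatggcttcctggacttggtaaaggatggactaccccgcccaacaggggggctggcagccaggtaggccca
Fcnb: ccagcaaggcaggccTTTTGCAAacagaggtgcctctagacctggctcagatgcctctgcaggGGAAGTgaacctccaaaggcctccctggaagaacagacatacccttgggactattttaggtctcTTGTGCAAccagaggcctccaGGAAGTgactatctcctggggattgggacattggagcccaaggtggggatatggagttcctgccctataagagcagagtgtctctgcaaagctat

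The C/EBP letters occurred once in Ngp, Ltf and Lcn2, as TTGCCCAA, TTGGGCAA and TTGCTCAA. Fcnb held 2 such matches, TTTTGCAA and TTGTGCAA. The Ltf match spanned 75 to 68 bases before the RefSeq start, and the Ngp match 138 to 131 bases before it. The Lcn2 match, 216 to 209 bases before the RefSeq start, lies inside an exon of an alternative Lcn2 transcript. The whole Lcn2 stretch lies inside the Lcn2 gene as GENCODE places it, downstream of its annotated 5′ end. No match was in the 89 bases shown for Camp or in the 250 bases of Chil3. Over stretches cut to the same length from 27025 RefSeq promoters, the C/EBP letters were present in 7.80% for the Ngp length, 9.04% for the Ltf length, 7.88% for the Lcn2 length and 9.40% for the Fcnb length. AGGTCA occurred in Ltf, and in 12.9% of promoters at that length. The ETS letters occurred in Fcnb, and in 19.2% of promoters at its length, and also in Chil3, and in 19.99% at that length. These are matches of letters in a sequence and say nothing of binding.

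The libraries were deep. After filtering, 5476 vehicle cells held 99107718 UMIs and 7140 retinoic acid cells held 110088247 UMIs, with medians of 16749.5 and 14604 UMIs per cell. A UMI marks 1 captured RNA molecule, and levels are given as CPM, the percent of a library's UMIs that a gene took times 10000. The libraries shared 11 cell barcodes. Of the promyelocyte markers, Ctsg was high in both libraries at 6444 and 5979 CPM, while Mpo was at 311 CPM under vehicle and 0.50 CPM under retinoic acid. The other 3, Elane, Prtn3 and Ms4a3, were at least 2-fold higher, and the list of 5 summed to 7915 and 18548 CPM. The 5 neutrophil markers together stood at 525 and 27748 CPM, and 4 of the 5 were at least 2-fold higher. The 6 eosinophil markers went from 114 to 30.5 CPM, with 2 of 6 at least 2-fold lower and Ear1 at 0. The 7 mast cell or basophil markers went from 739 to 66.4 CPM, with 2 of 7 lower and Fcer1a and Prss34 at 0 under retinoic acid. The T or NK cell list summed to 1285 and 575 CPM (1 of 5 lower), nearly all of it from Nkg7 at 1283 and 575 CPM, with Cd3e at 0 under retinoic acid. The monocyte or macrophage list summed to 80.8 and 9.67 CPM (1 of 6 lower) and the megakaryocyte list to 29.1 and 1.08 CPM (1 of 4 lower). The erythroid and B cell lists summed to under 5 CPM in each library. A marker was counted as higher or lower only with at least 20 CPM in either library, so the rest of a list need not be within 2-fold. Of the 5548 genes with at least 20 CPM, 3.03% were at least 2-fold higher and 5.05% lower. The part of these lists in the granule gene ratios was not tested.

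The granule genes were far higher in the retinoic acid library, and they went from 0.111% to 3.41% of all UMIs. Camp, at 17390 UMIs or 175 CPM under vehicle, stood at 2003617 UMIs or 18200.1 CPM under retinoic acid. That is a ratio of 104, or 6.70 on the log2 scale (95% counting interval 6.68 to 6.72). Ngp stood at 705 CPM under vehicle and 14009.9 CPM under retinoic acid, a log2 ratio of 4.31 (4.30 to 4.32). Ngp was thus the most abundant of the 6 under vehicle, at 4.02 UMIs for each Camp UMI, and Camp under retinoic acid, at 1.30 UMIs for each Ngp UMI. These are counts of 3′ ends, which do not scale with gene length.

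Lcn2 rose from 229 to 1721 CPM, a log2 ratio of 2.91 (2.89 to 2.93), which was the smallest ratio of the 6. Ltf was rare in both libraries next to Camp and Ngp. It rose from 469 UMIs (4.73 CPM) to 11595 UMIs (105 CPM), a log2 ratio of 4.47 (4.34 to 4.61). Fcnb rose from 29 UMIs (0.293 CPM) to 2049 UMIs (18.6 CPM), a log2 ratio of 5.97 (5.46 to 6.57). Chil3 had 1 UMI under vehicle and 428 UMIs (3.89 CPM) under retinoic acid, a ratio of 257 with a counting interval of 68.8 to 15254. In this library the order of levels was Camp, Ngp, Lcn2, Ltf, Fcnb and Chil3, and no neighbours in it overlapped in counting error. Every interval given covers the error of counting alone, and none covers the spread among mice or preparations.

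**Figure D1:**
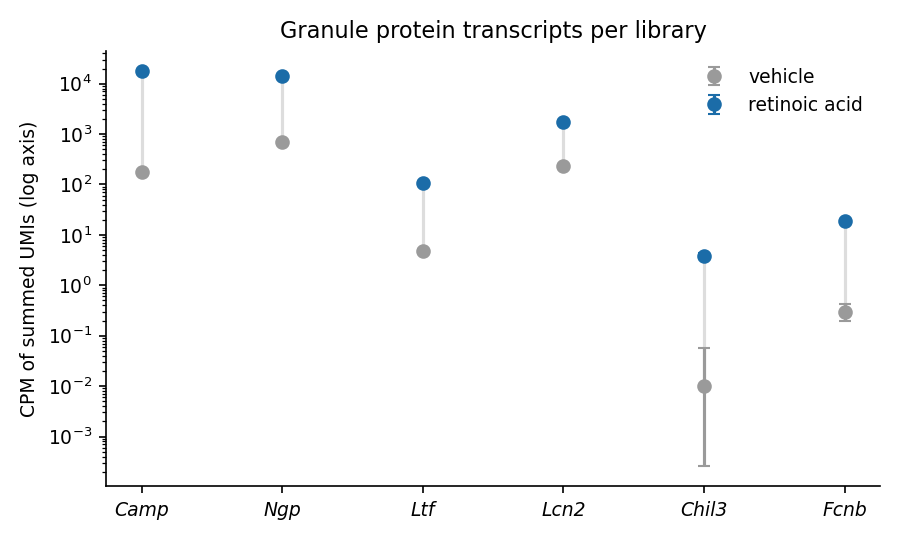
Level of each gene in the vehicle library (grey) and the retinoic acid library (blue), in CPM on a log axis, with exact Poisson 95% intervals for counting error. The retinoic acid point lies above the vehicle point for all 6 genes, from 2.91 log2 units for Lcn2 to 6.70 for Camp among the 4 genes over 20 CPM.

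All 6 genes were at least 2-fold higher in the retinoic acid library. They were chosen with earlier results of these data known, so the shares over all genes given here are background and do not weigh this count. The 4 of them with at least 20 CPM in either library belonged to 5548 such genes, of which 3.03% were at least 2-fold higher. At a limit of 1 CPM, which takes in Chil3 and Fcnb, 4.24% of 11294 genes were. Ltf passed 20 CPM, and Chil3 and Fcnb passed 1 CPM, only in the retinoic acid library. At their vehicle levels of 4.73, 0.0101 and 0.293 CPM, passing the limit already means a 2-fold rise. For these genes the 2-fold call was therefore fixed by the limit. The median log2 ratio of the 6 was 5.22. It includes Chil3 at 8.01, from 1 vehicle UMI, and Fcnb at 5.97, which are not among the 5548 genes. The median over the 5548 genes was 0.01, and the 4 members among them stood at 6.70, 4.31, 4.47 and 2.91. The DESeq2 size factors would raise every log2 ratio by 0.11. Most other genes between the 3 on chromosome 9 differed little. In the 1195 kb from Camp to Ltf the matrix held 34 other genes, 6 of them with at least 20 CPM. Their median log2 ratio was 0.02, and 1 was at least 2-fold higher, Cdc25a, a cell cycle phosphatase, at 1.45.

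Other granule genes were read from lists by granule type. Of 7 further secondary granule genes with at least 20 CPM, 4 were at least 2-fold higher and 1 was lower, where 5.05% of the 5548 genes were at least 2-fold lower. Cd177, a surface protein of neutrophils kept in secondary granules, went from 13.1 to 311 CPM (4.57 on the log2 scale), and Olfm4, olfactomedin 4, from 35.0 to 735 CPM (4.39). Hp, haptoglobin, went from 174 to 1086 CPM (2.64). Slpi, a protease inhibitor, was lower at 2403 and 1053 CPM (-1.19). The secondary granule genes did not all follow, since Cyba and Itgb2 stayed within 2-fold at 0.42 and 0.68. Of 2 tertiary granule genes with enough counts, Adam8, a membrane protease, was lower (-2.28) and Plaur, the urokinase receptor, was within 2-fold (-0.71). Mmp9, gelatinase B, had 0.333 and 5.77 CPM.

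Among 9 primary granule genes, 3 were past 2-fold upward and 1 downward. Elane, neutrophil elastase, rose from 62.8 to 7663 CPM (6.93) and Prtn3, proteinase 3, from 246 to 2819 CPM (3.52), whereas Mpo fell by 9.27 on the log2 scale. Ms4a3, a membrane protein of granulocyte precursors, rose by 1.30. The log2 ratios of primary granule genes thus ran from far below that of Lcn2, for Mpo, to above that of Camp, for Elane.

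Of 10 regulators with at least 20 CPM, 1 was at least 2-fold higher and none lower. Of all 5548 genes with at least 20 CPM, 3.03% were at least 2-fold higher and 5.05% lower. Cebpd went from 98.3 to 209 CPM (1.09). Cebpe, which encodes C/EBPε, was at 401 and 359 CPM (-0.16), and Cebpa, its relative in early myeloid cells, at 47.2 and 40.2 CPM (-0.23). Gfi1, a repressor needed for neutrophil development, was at 75.4 and 144 CPM (0.93), Spi1, which encodes PU.1, at 173 and 293 CPM (0.76) and Cebpb at 162 and 260 CPM (0.68). Under TMM and DESeq2 scaling Gfi1 passed 2-fold too, at 1.01 and 1.04. The log2 ratios of the rest were 0.37 for Klf5, 0.14 for Stat3, -0.01 for Cux1 and -0.54 for Runx1. The receptor gene Csf3r stayed under 20 CPM, at 1.93 and 6.40. Scaled by totals, every regulator over 20 CPM but Cebpd was thus within 2-fold, as were most of the 5548 genes. The part of regulator levels in the granule gene ratios was not tested.

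Relatives by sequence differed among themselves. Chil4 and Chil6, close relatives of Chil3, had 0 UMIs in both libraries, and reads that match several such copies may have been lost in counting, so the Chil3 level is uncertain. Chil1 had 4 UMIs under vehicle and 660 under retinoic acid. Fcna, the other ficolin gene, had 103 and 211 UMIs. Trf, transferrin, a relative of lactoferrin, was at 155 and 99.4 CPM. Of the cystatin family genes related to Ngp, Cst3 was at 490 and 449 CPM, while Stfa1, Stfa2 and Stfa3, which are near-identical copies and so uncertain, rose to between 20.96 and 26.8 CPM.

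How the molecules were spread over cells was examined after each cell with at least 5000 UMIs had been thinned at random to 5000, which left 5282 vehicle and 6659 retinoic acid cells. The 6 genes together made up a median of 1.82% of a retinoic acid cell's UMIs, with quartiles of 0.60% and 6.11% and a highest cell of 30.4%. The median vehicle cell had 0.02%. In the median retinoic acid cell 49 of the 5000 UMIs were Camp, 38 were Ngp and 4 were Lcn2, and none was Ltf, Chil3 or Fcnb. Camp and Ngp were thus broad but uneven, with quartiles of 14 and 173 UMIs for Camp and of 12 and 120 for Ngp.

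At least 1 UMI was found in 98.4% of retinoic acid cells for Camp (95% binomial interval 98.1 to 98.7), 98.2% for Ngp, 89.6% for Lcn2, 8.24% for Fcnb (7.59 to 8.93), 7.36% for Ltf (6.74 to 8.01) and 0.631% for Chil3 (0.455 to 0.852). Without thinning the shares were 99.7%, 99.5%, 96.5%, 17.2%, 10.5% and 1.25%. Free RNA in droplets can give a cell its UMIs, so the same was counted in 19 retinoic acid cells with at least 20 UMIs over 2 or more eosinophil genes, a limit set after the data had been seen. Of those, at their median depth of 4924 UMIs, 18 had a Camp UMI, 15 an Ngp UMI, 4 an Lcn2 UMI and 2 an Ltf UMI, and none had Chil3 or Fcnb. At 1 UMI the shares for Camp and Ltf were therefore not above those in cells of another lineage beyond counting error. For Fcnb and Chil3, 0 of 19 cells allows up to 17.6% by the binomial interval, which covers their library shares too. The levels over the library were higher, since those 19 cells held Camp at 533 CPM and Ngp at 883 CPM, against 18200.1 and 14009.9 over the library. At least 10 UMIs were found in 81.6% of thinned retinoic acid cells for Camp, 78.9% for Ngp, 22.6% for Lcn2 and 2.87% for Ltf, against 1 of the 19 for Camp, 5 for Ngp, 1 for Lcn2 and none for Ltf. Ngp over Camp was 1.66 in the 19 cells and 0.770 in the library. A limit of 10 eosinophil UMIs took in 29 cells, whose Camp level of 3840 CPM came mainly from 1 cell with 652 of their 874 Camp UMIs.

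Under vehicle, the genes were split. Lcn2 and Ngp had at least 1 UMI in 52.0% and 39.8% of thinned cells, and in 80.8% and 61.4% without thinning. In 104 vehicle cells with at least 20 eosinophil UMIs, at a median of 9117.5 UMIs, the unthinned shares were 47.1% and 45.2%, so detection at 1 UMI there is not read as expression. The levels in those 104 cells were 130 CPM for Lcn2 and 243 CPM for Ngp, against 229 and 705 in the library. Camp was found in 3.88%, Ltf in 0.360%, Fcnb in 0.151% and Chil3 in 1 cell. The Camp UMIs sat in very few cells. Of all 5476 vehicle cells, 17 held 50% of the Camp UMIs and the top 1% held 90.1% of them. For Lcn2, 635 cells held 50%, and for Ngp 81 cells. In the retinoic acid library 1126 cells (15.8%) held 50% of the Camp UMIs, 668 those of Lcn2, 87 those of Ltf and 5 those of Chil3, whose level there thus rests on a few cells.

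**Figure D2:**
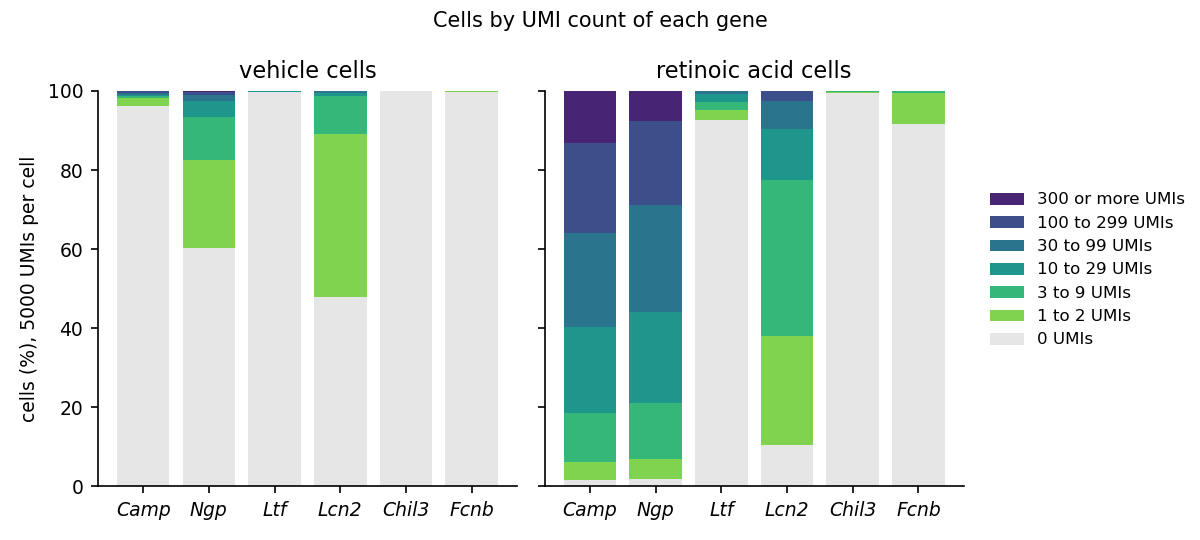
Share of cells, in percent, by the number of UMIs of each gene among 5000, for 5282 vehicle cells (left) and 6659 retinoic acid cells (right). Camp and Ngp reach at least 10 UMIs in 81.6% and 78.9% of retinoic acid cells, while Ltf, Chil3 and Fcnb are at 0 UMIs in most cells of both libraries.

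Most vehicle UMIs of Camp and Ltf, but not most of those of Ngp and Lcn2, lay in cells high in other maturation genes. A maturation share was taken as the percent of a cell's UMIs, the 6 genes left out, in a list of 17 neutrophil maturation genes that holds none of the 6, among them S100a8, S100a9, Ly6g, Mmp8 and Retnlg. S100a8 and S100a9 gave 86.8% of the list's UMIs in retinoic acid cells, so the share is mainly one of these calprotectin genes. A share above the retinoic acid median of 1.83% was found in 41 vehicle cells (0.776%). These held 74.1% of the vehicle Camp UMIs, 99.2% of those of Ltf, 38.5% of those of Ngp and 25.8% of those of Lcn2. In the other 5241 cells Camp was at 73.1 CPM, Ltf at 0.0763 CPM, Ngp at 579 CPM and Lcn2 at 207 CPM. By lineage genes, Ngp was at 372 CPM in the 396 vehicle cells with at least 3 Mpo UMIs and no Cpa3. It was at 191 CPM in the 1671 with at least 3 Cpa3 UMIs and no Mpo. In the 500 cells with both genes Ngp was at 205 CPM, and in the 1558 with neither at 2413 CPM. These classes do not cover every vehicle cell. The 191 and 205 CPM lie under the 243 CPM, without thinning, of the 104 vehicle cells with eosinophil genes, so they are not read as expression. How much of the 2413 CPM came from the 41 cells high in the maturation share was not tested. The gate sets which stages of maturation could enter either library.

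Ngp without Camp was more frequent among vehicle cells than among retinoic acid cells. The cuts used are fixed counts, so they follow abundance, and Ngp had 4.02 UMIs for each Camp UMI under vehicle. Under vehicle, 260 cells (4.92%) had at least 10 Ngp and at most 2 Camp UMIs. The reverse was found in 0 cells, which allows up to 0.0698% by the binomial interval. All 69 vehicle cells with at least 10 Camp UMIs had at least 10 of Ngp. In the retinoic acid library 99 cells (1.49%) showed Ngp without Camp and 110 showed Camp without Ngp, while 4878 (73.3%) had at least 10 of both.

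The order of appearance was read from the retinoic acid cells alone. The 6659 thinned cells were ranked by the maturation share and put into 20 groups of near-equal size, and for each gene the midpoint group was the first at or above midway between its level in the lowest group and its highest group level. Each gene was scaled to its own range, so that places do not compare abundance between genes. The members' UMIs are left out of the denominator of the share, so cells tied in list UMIs were ranked by them. With the share taken from 3000 non-member UMIs in each cell and ties at random, Fcnb moved to 85% and the other 5 kept their places. Camp reached its midpoint in group 16, above 75% of the cells, Ngp in group 18 (85%), Lcn2 in group 19 (90%) and Ltf in group 20 (95%). Fcnb reached its midpoint in group 16 as well, and Chil3 in group 19, but with 725 and 197 UMIs their places are coarse. The midpoints of the 6 spanned 20% of the cells.

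Camp was at 2219 CPM in group 1, 10459 CPM in group 10, 39061 CPM in group 16 and 68993 CPM in group 19, and was level at 67625 CPM in group 20. Ngp was at 3277 CPM in group 1, 6989 CPM in group 10, 25921 CPM in group 16, 59172 CPM in group 19 and 70733 CPM in group 20. The ratio of Ngp to Camp UMIs therefore went from 1.48 in group 1 to 0.65 in group 14 and back to 1.05 in group 20. Ngp was the higher of the pair in the cells lowest on the axis, Camp in the middle, and their levels were close in the top group.

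Lcn2 and Ltf were late. Lcn2 was at 192 CPM in group 1, 2067 CPM in group 16 and 17616 CPM in group 20, and the top group alone held 37.2% of its UMIs. Ltf was at or under 21.02 CPM through group 16, at 201 CPM in group 18, 651 CPM in group 19 and 2499 CPM in group 20. The top group held 71.8% of the Ltf UMIs and 75% of its cells had one, against 35.1% in group 19 and 0.601% in group 1. Fcnb went from 1.20 CPM in group 1 to 45.6 CPM in group 16, 35.4 CPM in group 17 and 77.5 CPM in group 19, and was at 61.5 CPM in group 20. Chil3 had 80.2% of its UMIs in groups 19 and 20, at 56.5 and 38.6 CPM. The depth of the cells before thinning moved with the axis, from a median of 17541 UMIs in group 1 to 7724.5 in group 20, and its part in the order was not tested.

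**Figure D3:**
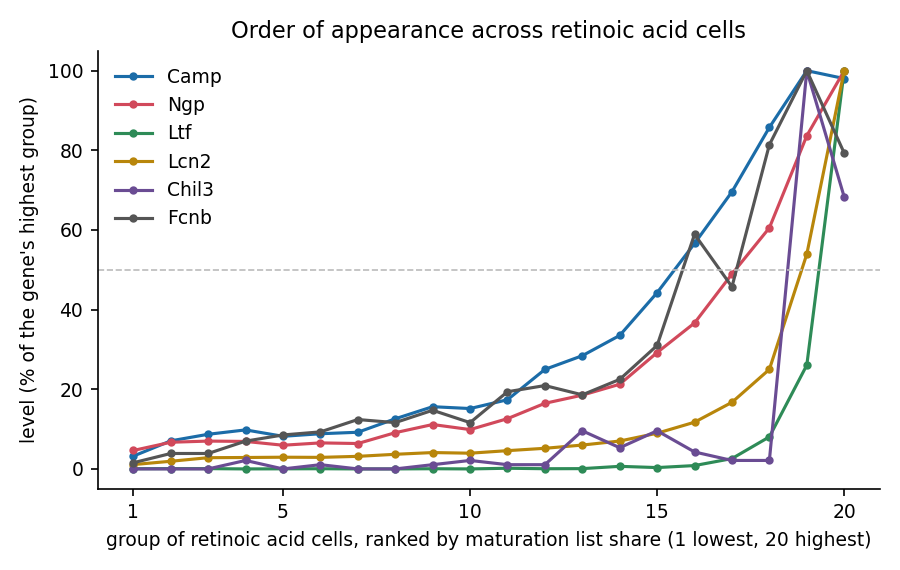
Level of each gene, as a percent of its highest group, in 20 groups of retinoic acid cells ranked by the maturation share (1 lowest, 20 highest, about 333 cells each, 5000 UMIs per cell). The lines cross the dashed 50% line in the order Camp with Fcnb, Ngp, Lcn2 with Chil3, and Ltf in the last group; Fcnb dips at group 17.

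The order Camp, Ngp, Lcn2, Ltf, with ties allowed, was the same in all 12 alternatives that were run, which changed the axis, the depth, the groups of cells and the cells included. In 9 of them Camp came before Lcn2 and Lcn2 before Ltf with no tie. Lcn2 and Ltf tied in the top group, above 95% of the cells, on the list without S100a8 and S100a9 and on the first principal component of non-member genes, and with 10 groups of cells, above 90%. The midpoint of Fcnb lay above 65% to 85% of the cells and that of Chil3 above 75% to 95%. Fcnb did not stay level with Camp. At 3000 UMIs per cell and without the 5% deepest cells Fcnb was at 85% and Camp at 75%. In G1 cells alone they were at 65% and 55%. In other alternatives the 2 genes tied, as on the first principal component at 80%. The 481 retinoic acid cells under 5000 UMIs, which thinning left out, were rich in late transcripts, with Ltf at 975 CPM, Lcn2 at 6796 CPM and Camp at 35273 CPM. At 2000 UMIs per cell, which took in 7025 cells, Camp stood above 75%, Ngp 80%, Lcn2 90% and Ltf 95% of the cells.

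Cells were also sorted by their Camp count, which places the other genes against Camp but not Camp itself, and in which detection at a fixed depth follows abundance. Ngp was present in 88.6% of the 105 retinoic acid cells with no Camp UMI and in all 1497 cells with at least 200. Its mean went from 6.50 to 261 UMIs per cell. Lcn2 went from 55.2% of cells and a mean of 0.848 UMIs to 99.7% and 38.2 UMIs. Ltf was found in 0.424% of the cells with 10 to 49 Camp UMIs, in 3.20% of those with 50 to 199 and in 28.0% of those with at least 200 (25.7 to 30.3). Fcnb rose earlier and less, through 4.09% and 8.83% to 19.0% in the same classes. Chil3 stayed at or under 1.14%. In the vehicle library 12 of the 26 cells with 50 to 199 Camp UMIs had Ltf, a share of 46.2% (26.6 to 66.6), so Ltf was found there at a lower Camp count.

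**Figure D4:**
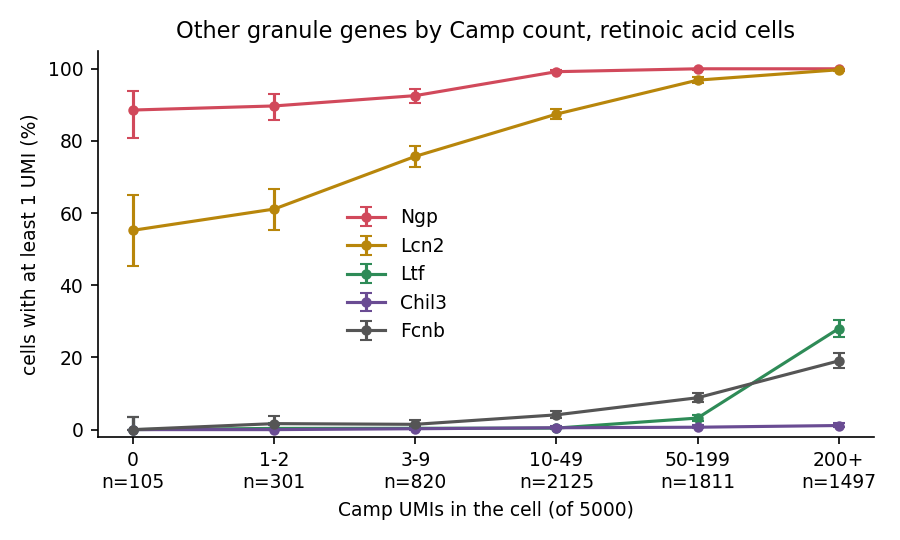
Percent of retinoic acid cells with at least 1 UMI of Ngp, Lcn2, Ltf, Chil3 or Fcnb, by the number of Camp UMIs among 5000 in the cell, with exact binomial 95% intervals and the number of cells in each class. Ltf stays under 1% up to 49 Camp UMIs and reaches 28.0% at 200 or more.

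Pairs of genes were also read for detection in the same cells. All 490 retinoic acid cells with an Ltf UMI had Camp, 489 had Ngp and 489 had Lcn2. All 549 cells with Fcnb had Camp. Over all 6659 cells, 98.4% had Camp, 98.2% Ngp and 89.6% Lcn2, so overlap with Camp and Ngp was close to that of any cells. In 14 of the 15 pairs the more abundant gene was also the more frequent sole gene. Detection at a fixed depth follows abundance, so this count is a description. The exception was Ltf with Fcnb, where 404 cells had Ltf alone, 463 had Fcnb alone and 86 had both. Ltf had more UMIs than Fcnb and fewer cells. The 323 cells with at least 3 Ltf UMIs had a median rank above 96.5% of the cells and medians of 335 Camp, 365 Ngp and 91 Lcn2 UMIs. The 39 cells with at least 3 Fcnb UMIs had a median rank above 90.3% and medians of 346 Camp, 271 Ngp and 29 Lcn2 UMIs.

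Ltf and Lcn2 differed more between cell cycle calls than Camp and Ngp did. Calls were made from S and G2/M genes with a scoring method that moves with scaling and seed, so they are groups of score and not measured phases. Ltf was at 599 CPM in the 1722 retinoic acid cells called G1, 34.7 CPM in the 1759 called S and 19.8 CPM in the 3178 called G2/M. Lcn2 was at 5472, 1491 and 1160 CPM, Ngp at 29662, 16146 and 12181 CPM and Camp at 33747, 22352 and 16810.0 CPM. On the log2 scale, the level in G1 over that in G2/M was 4.92 for Ltf, 2.24 for Lcn2, 1.28 for Ngp and 1.01 for Camp. Chil3 (14.3, 2.62 and 3.21 CPM) and Fcnb (31.0, 21.6 and 16.9 CPM) were highest in G1 over all cells as well. The maturation share moved with the calls, with a median of 3.22% in G1, 1.82% in S and 1.55% in G2/M cells. Within the quartile of cells highest in that share, Ltf was at 1360 CPM in G1 and 142 and 118 CPM in S and G2/M. Camp was at 62207, 55073 and 49208 CPM there. That quartile is wide for Ltf, which went from 201 CPM in group 18 to 2499 CPM in group 20 of the ranked cells. The maturation share thus varied within the quartile, and whether Ltf differed between calls at an equal share was not tested. In the lowest quartile Camp was at 5833, 5484 and 4665 CPM. In the second-lowest quartile the order of Camp turned, at 7334, 9404 and 8397 CPM, as did that of Ngp at 5623, 6099 and 6247 CPM. In the next, Camp was at 21150.0 CPM in G1, 21158 in S and 19905 in G2/M. Fcnb was not highest in the same call in each quartile, at 56.8, 58.9 and 54.4 CPM in the highest quartile and 7.64, 11.8 and 8.51 CPM in the second-lowest.

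**Figure D5:**
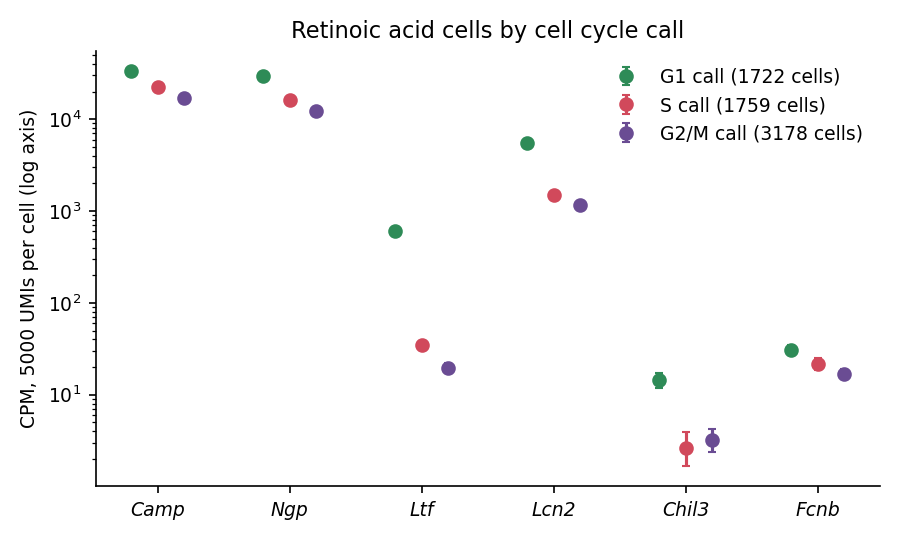
Level of each gene in retinoic acid cells called G1, S or G2/M, in CPM on a log axis at 5000 UMIs per cell, with exact Poisson 95% intervals for counting error. All 6 genes are highest in G1, with the widest gap for Ltf (599 against 34.7 and 19.8 CPM).

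The genes most like each member across the 6659 cells were taken by Pearson's r of log2(UMIs + 1) among 5128 genes, none of them a member. Such r values share the fixed depth of the cells and the common axis, and are descriptions. S100a9, a subunit of calprotectin, led for Camp (0.73) and for Ngp (0.70), followed for Camp by Tmsb4x, S100a8, Cstdc5 and Cd177 and for Ngp by Tmsb4x, Cstdc5, S100a8 and Cd52. The genes most like Lcn2 were Ly6g (0.74), a part of the Gr1 antigen, Ceacam10, S100a8, S100a9 and Ifitm6. Those most like Ltf were Ifitm6 (0.69), Ly6g, Anxa1, Retnlg and Clec4a2. S100a8 and S100a9 were thus among the leading genes of Camp, Ngp and Lcn2, and Ly6g and Ifitm6 among those of Ltf and Lcn2. Among the members, r was 0.88 for Camp with Ngp, 0.57 for Lcn2 with Ltf and 0.30 for Camp with Ltf. For Fcnb and Chil3 the highest r values, 0.22 with S100a9 and 0.14 with S100a4, were too low in such sparse counts to describe a likeness.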

How the data were processed

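Droplet 3′ RNA sequencing of sorted PLZF/RARA promyelocytes gave 1 vehicle and 1 retinoic acid library. Both deposited matrices hold unscaled UMI counts for every gene and barcode. Cell Ranger 4.0.0 made them, per the file headers, and the builds were mm10 and GRCm38.p4, per the submitters' processing notes. How cells were told from empty droplets is not given in the sources used here. Cells with at least 1000 UMIs, 500 genes and at most 10% mitochondrial UMIs were kept, which removed 310 vehicle and 276 retinoic acid barcodes. No doublets were called or removed. An alternative left out the 5% deepest cells of each library.

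Counts were summed over a library and given as CPM. Log2 ratios are retinoic acid over vehicle with 0.5 counts added. Sums carry exact Poisson, ratios conditional binomial and shares Clopper-Pearson 95% intervals, for counting error only. A sum of 0 allows 3 counts, or 0.0303 CPM under vehicle and 0.0273 CPM under retinoic acid. Phases were called with scanpy 1.11.5 on both libraries together. Alternatives used scalings of edgeR 4.0.16 and DESeq2 1.42.0, with no test. The ratio, thinning and order steps were tested on simulated data.

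The members and gene lists were chosen with earlier results of these data known. Named genes were the 6 members, all regulators, up to 4 genes per granule or family list with at least 20 CPM and the largest ratios, and the 5 genes of highest correlation per member. Cyba, Itgb2, Mmp9, Cst3, Cdc25a, Chil1, Fcna and the relatives under 20 CPM were added after their values were seen. The lists by granule type follow textbook knowledge, and genes of uncertain granule were placed in 1 list only.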

Additional observations from a re-analysis of the deposited data

How the results depend on the processing

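Of 205 recomputed values 158 moved by less than counting error, 1.5 times (counts of genes) or 1 group of cells (midpoints). None of the 42 recomputed log2 ratios of single members changed direction. For the other values a change of direction was not scored. All 6 genes stayed at least 2-fold higher under each scaling, cell weight and cell filter. With 1 library in each group, leaving out a replicate could not be done. No paired analysis was possible because the groups compared have 1 library apiece. The log2 ratio ranged from 6.28 to 6.80 for Camp, 4.21 to 4.42 for Ngp, 4.43 to 4.58 for Ltf, 2.90 to 3.18 for Lcn2, 7.98 to 8.80 for Chil3 and 5.87 to 6.46 for Fcnb. The number of genes at least 2-fold apart, 448, was 923 with a limit of 5 CPM, 133 with 100 CPM and 6081 with none, as these test more or fewer genes. With the 5% deepest cells left out, the median share of a cell's UMIs in the 6 genes was 1.93%.

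The share of retinoic acid cells with at least 1 UMI moved with the depth taken, which also changes which shallow cells enter. At 3000 UMIs per cell it was 96.8% for Camp, 96.9% for Ngp, 80.8% for Lcn2 and 5.27% for Fcnb, while for Ltf it was 7.42% against 7.36%. Without thinning it was 99.7% for Camp, 99.5% for Ngp, 10.5% for Ltf, 96.5% for Lcn2, 1.25% for Chil3 and 17.2% for Fcnb. The span of the midpoints was 10% with 10 groups of cells, which are wider, and 30% in G1 cells alone, where the cause was not tested. The log2 level in G1 over G2/M was 0.95 for Camp and 1.21 for Ngp at 3000 UMIs. With another thinning seed it was 0.89 for Camp, 1.14 for Ngp, 4.72 for Ltf and 2.09 for Lcn2, so it moved by more than counting error. The alternatives for the cell cycle calls and the granule lists, the scaling of the regulators, the axis from 3000 non-member UMIs and the 2000 UMI limit were chosen after seeing the data.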
